A study of Homo sapiens with 6 samples.

Results

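The caveola genes described here are 7 genes out of 14646 with counts in the IGROV1 comparison, namely *CAV1*, *CAV2*, *CAVIN1*, *CAVIN3*, *EHD1*, *EHD2* and *PACSIN2*. They were found by their symbols in the deposited table and were chosen by their fold changes in this same comparison, in which *CAV1* and *CAV2* differed in opposite directions. Their differences between the groups are therefore given as a description, without a test. All 7 passed the filter on low counts. *CAV2* and *EHD2*, whose counts were low, passed it through 1 group each, *CAV2* through the sensitive cells and *EHD2* through the resistant ones.

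IGROV1 is a *PIK3CA*-mutated ovarian cancer cell line, and this mutation is shared by both groups. IGROV1Sen cells are sensitive to GDC0032 (taselisib), an inhibitor of PI3K that spares the beta isoform, and IGROV1Res cells became resistant to it during months of growth under rising concentrations. RNA was sequenced from 3 libraries per group. The letters UT in the labels, left unexplained there, were taken to mean that no drug was added. The RNA methods of the study describe cells given GDC0032 or its solvent DMSO, and the labels do not say whether UT stands for either. The sources used here do not say whether the resistant line is a clone. Nor do the labels say that the libraries came from separate cultures, so the errors and p-values reflect the spread between libraries, which may be technical.

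Caveolae are flask-shaped pits of the plasma membrane, rich in cholesterol and sphingolipids. Caveolin 1 is the core of their coat, caveolin 2 joins it in mixed oligomers and depends on it to leave the Golgi, and the cavins form an outer coat without which caveolins do not build stable pits. EHD2, an ATPase, sits at the neck and holds caveolae at the cell surface, and PACSIN2, an F-BAR protein, bends the membrane there. Caveolae are best known from adipocytes, endothelium and muscle, where they buffer membrane tension and gather signaling proteins.

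*CAV1* and *CAV2* lie side by side on chromosome 7 in the same orientation. In GENCODE release 29 on GRCh38, *CAV2* (ENSG00000105971) is annotated from 116287380 to 116508541 and *CAV1* (ENSG00000105974) from 116524785 to 116561184, with 16.2 kb between them. The 250 bases before a start site in RefSeq (GRCh38.p14, plus strand) are shown for both, because these neighbours are the members that differed in opposite directions. Capitals mark the GC box GGGCGG on either strand, a site of SP1-type factors. The windows are chr7:116524759-116525008 for *CAV1* and chr7:116499488-116499737 for *CAV2*.
CAV1: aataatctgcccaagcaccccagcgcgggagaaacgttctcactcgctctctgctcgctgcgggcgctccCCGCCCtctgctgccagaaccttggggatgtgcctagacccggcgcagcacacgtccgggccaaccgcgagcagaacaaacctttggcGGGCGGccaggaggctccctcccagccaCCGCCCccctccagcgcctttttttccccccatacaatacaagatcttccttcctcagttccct
CAV2: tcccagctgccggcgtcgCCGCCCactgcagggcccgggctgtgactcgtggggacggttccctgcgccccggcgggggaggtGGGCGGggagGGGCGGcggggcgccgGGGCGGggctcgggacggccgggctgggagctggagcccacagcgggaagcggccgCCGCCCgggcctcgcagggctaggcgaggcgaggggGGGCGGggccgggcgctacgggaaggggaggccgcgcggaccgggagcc
GENCODE also holds *CAV1* transcripts that start inside the first window and *CAV2* transcripts that start before the second, among them noncoding ones far upstream.

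Both windows shown, each before the first RefSeq start of its gene, are rich in G and C, and that of *CAV2* more so. The *CAV2* window was 83.2% G and C and held 35 CpG and 6 GC boxes, and the *CAV1* window was 63.6% G and C and held 18 CpG and 3 GC boxes. Over 34788 RefSeq windows of the same length the median was 58.0% G and C with 11 CpG, and 42.6% of windows held at least 1 GC box. A share of 98.9% of all windows had less G and C than that of *CAV2*, against 63.4% for *CAV1*. The order depended on the start, since the windows before the other RefSeq starts were 63.2% and 73.2% G and C with 16 and 29 CpG for *CAV1*, and 70.0% with 27 CpG for *CAV2*. Neither window held GGAATG (TEAD, in 11.9% of all windows), GTAAACA (FOXO, 2.98%), TGANTCA (AP-1, 6.59%), TATAAA (10.8%), CCAAT (32.0%), CACGTG (E-box, 6.31%) or a CArG box (1.17%), searched on both strands. These matches describe letters in the windows only.

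*CAV1* had 464, 413 and 448 counts in IGROV1Sen replicates 1, 2 and 3, and 1072, 1629 and 1567 counts in IGROV1Res replicates 1, 2 and 3. Every IGROV1Res library was above every IGROV1Sen library, and IGROV1Res replicate 1 was the lowest of its group. In CPM, read counts scaled to a common library size with TMM factors, the level was 31.7 ± 4.61 in IGROV1Sen and 100.7 ± 19.5 in IGROV1Res (SD, n = 3 libraries each), a 3.17-fold difference. In bulk RNA, a change in the share of expressing cells and a change in RNA per cell cannot be told apart. The fitted log2 fold change of IGROV1Res over IGROV1Sen was 1.67 (standard error 0.16), and 1.57 to 1.82 when 1 library at a time was left out.

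*CAV2* had 17, 16 and 17 counts in IGROV1Sen replicates 1, 2 and 3, and 0 counts in all 3 IGROV1Res libraries. Its level was 1.20 ± 0.14 CPM in IGROV1Sen (SD, n = 3), already low, while in IGROV1Res a count of 0 allows up to 0.21 to 0.22 CPM in a library. Taken against 3 counts over the whole IGROV1Res group, *CAV2* was at least 16.7-fold lower in IGROV1Res. With fewer IGROV1Res libraries this limit is set higher, and the bound was 11.02- to 17.8-fold when 1 library at a time was left out. The bound leaves out the counting error of the 50 IGROV1Sen counts and the spread between libraries. A change of this form was rare among all genes. Of 12986 genes with at least 10 counts in every IGROV1Sen library, 5 (0.0385%) had 0 counts in every IGROV1Res library, and *CAV2* was one of them. Of 877 genes at its level, with 10 to 30 counts in every IGROV1Sen library, 2 (0.228%) were lost in this way. In the other direction, 5 of 12999 genes (0.0385%) had 0 counts in every IGROV1Sen library. Because *CAV2* was chosen for this change, these shares only give its setting.

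The counts of *CAV1* and *CAV2* can be told apart by sequence. None of the 60-base stretches of their annotated transcripts was shared between both genes (0 of 4228 for *CAV1* and 0 of 7772 for *CAV2*), at the length of the reads. For *CAV2*, 29 of the stretches, or 0.373%, occur in transcripts of other genes on either strand. Whether the counting used strand is not given in the sources used here, and antisense transcripts are annotated within both genes.

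*CAV1* made up nearly all caveolin counts in both groups. Its share of *CAV1* plus *CAV2* counts was 96.5% (exact 95% interval 94.4 to 97.9), 96.3% (94.0 to 97.9) and 96.3% (94.2 to 97.9) in IGROV1Sen replicates 1, 2 and 3. In IGROV1Res 0 of 4268 counts were *CAV2*, which allows a share of up to 0.0703% (3 counts of 4268). These intervals cover counting error only. Per kb of annotated exon, *CAV1* was 43.8 to 46.3 times *CAV2* in the IGROV1Sen libraries. Over the exons of coding transcripts alone, a length chosen after the data were seen, it was 28.5 to 30.1 times *CAV2*, since the annotated exons of *CAV2* include those of noncoding transcripts.

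**Figure D1:**
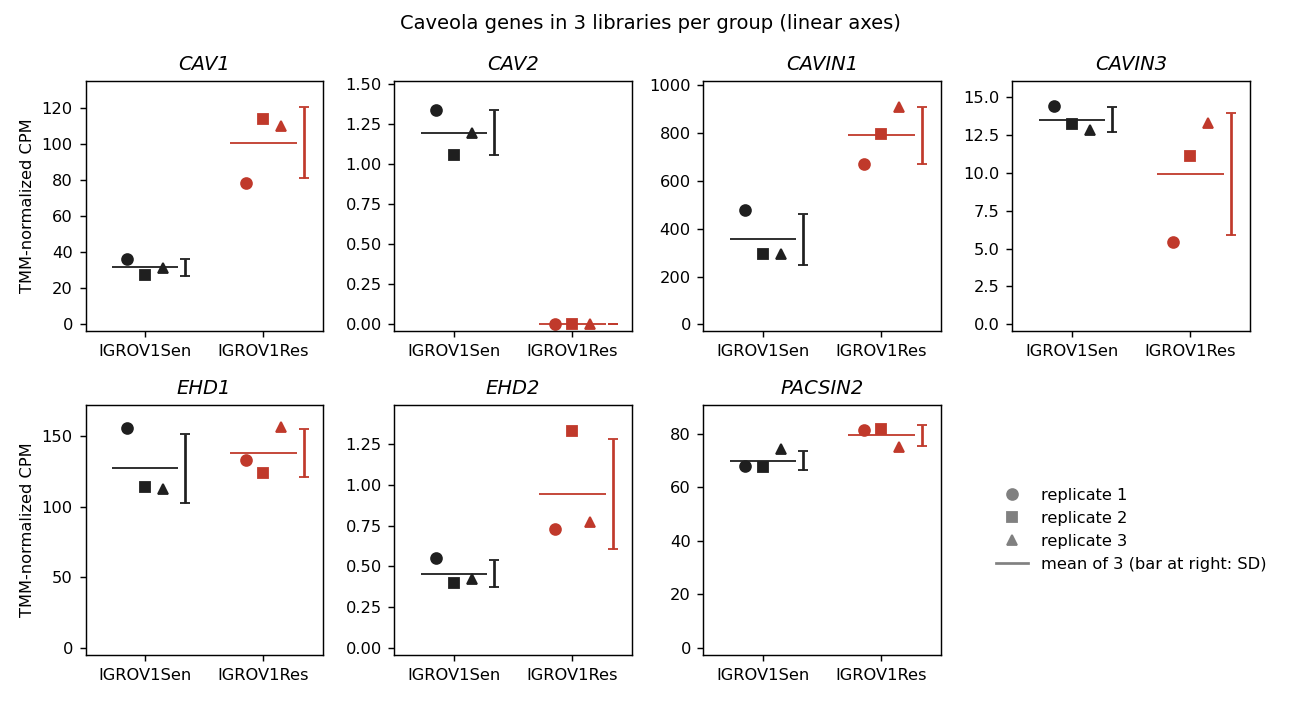
Level of each of the 7 caveola genes (TMM-normalized CPM, linear axes that include 0) in every library. Symbols mark replicates 1 to 3, the horizontal line is the mean and the bar at the right the SD of 3 libraries. *CAV1*, *CAVIN1*, *EHD2* and *PACSIN2* were higher in every IGROV1Res library than in any IGROV1Sen library, *CAV2* was at 0 in all 3 IGROV1Res libraries, and the groups overlapped for *CAVIN3* and *EHD1*.

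Of the 7 genes, 4 were higher and 1 was lower in IGROV1Res without overlap between the libraries of both groups. Among all 13791 genes tested, 23.4% were higher and 24.5% lower without overlap, 47.8% together. Since the 7 were chosen with this comparison known, nothing is read from their count.

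*CAVIN1* (ENSG00000177469, chromosome 17 from 42402452 to 42423517), the cavin that caveolae cannot form without, moved in the same direction as *CAV1*. It had 6112, 4451 and 4190 counts in IGROV1Sen replicates 1, 2 and 3, and 9180, 11348 and 12966 in IGROV1Res replicates 1, 2 and 3. The lowest IGROV1Res library stood above the highest IGROV1Sen library, with replicate 1 the highest in IGROV1Sen and replicate 3 the highest in IGROV1Res. The level was 356 ± 108 CPM in IGROV1Sen and 791 ± 119 CPM in IGROV1Res (SD, n = 3 each), and the log2 fold change was 1.15 (standard error 0.20). It was 1.43 without IGROV1Sen replicate 1.

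*CAVIN3* (ENSG00000170955, chromosome 11 from 6318946 to 6320647), whose protein binds protein kinase C delta, showed no such difference. It had 183, 200 and 183 counts in IGROV1Sen replicates 1, 2 and 3, and 74, 158 and 189 in IGROV1Res replicates 1, 2 and 3. The groups overlapped, since IGROV1Res replicate 3 was within the range of IGROV1Sen and replicate 1 far below it. The means were 13.5 ± 0.82 and 9.91 ± 4.04 CPM (SD, n = 3 each). Its log2 fold change of -0.44 (standard error 0.27) rested largely on that library and was -0.15 without IGROV1Res replicate 1. In addition, 27.3% of the 60-base stretches of its transcripts also occur in transcripts of other genes, all in the overlapping gene AC068733.3 on the other strand. Its counts are therefore uncertain.

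The neck genes differed less, or were near the limit of detection. *EHD2* (ENSG00000024422, chromosome 19 from 47713343 to 47743134) had 7, 6 and 6 counts in IGROV1Sen replicates 1, 2 and 3, and 10, 19 and 11 in IGROV1Res replicates 1, 2 and 3. Each IGROV1Res library was above each IGROV1Sen library, by as few as 3 counts. The means were 0.456 ± 0.083 and 0.944 ± 0.336 CPM (SD, n = 3 each). The log2 fold change was 1.05 (standard error 0.40), and 0.73 without IGROV1Res replicate 2.

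*EHD1* (ENSG00000110047, chromosome 11 from 64851642 to 64888296), a relative of EHD2 that works mainly in the recycling of endocytosed membrane, was far more abundant. It had 1977, 1726 and 1606 counts in IGROV1Sen replicates 1, 2 and 3, and 1822, 1767 and 2237 in IGROV1Res replicates 1, 2 and 3. The highest values of both groups were alike, at 155 and 157 CPM, and the means were 127 ± 24.4 and 138 ± 17.0 CPM (SD, n = 3 each). The log2 fold change was 0.12 (standard error 0.14) and ranged from 0.02 to 0.29 when 1 library at a time was left out.

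*PACSIN2* (ENSG00000100266, chromosome 22 from 42835412 to 43015145) had 865, 1022 and 1057 counts in IGROV1Sen replicates 1, 2 and 3, and 1113, 1167 and 1069 in IGROV1Res replicates 1, 2 and 3. Its libraries did not overlap after scaling, but the nearest ones, at 74.1 and 74.9 CPM, nearly met. The means were 69.9 ± 3.64 and 79.3 ± 3.84 CPM (SD, n = 3 each), at a log2 fold change of 0.18 (standard error 0.08). Of the 60-base stretches of its transcripts, 2.01% also occur in transcripts of *ARFGAP3*.

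Per kb of annotated exon, the order of the 7 genes was led by *CAVIN1* in both groups. In IGROV1Sen, *CAVIN1* had 93.0 CPM per kb, *EHD1* 17.9, *PACSIN2* 15.3, *CAVIN3* 8.06, *CAV1* 7.77, *CAV2* 0.172 and *EHD2* 0.116. *EHD1* and *PACSIN2* overlapped there (15.9 to 21.9 and 14.8 to 16.3), as did *CAVIN3* and *CAV1* (7.67 to 8.61 and 6.69 to 8.94), while *CAV2* and *EHD2* nearly met (0.153 to 0.193 and 0.101 to 0.140). Over the exons of its coding transcripts alone *CAV2* had 0.289 CPM per kb. In IGROV1Res, *CAV1* came second with 24.7 CPM per kb (19.2 to 27.9) and overlapped *EHD1* (17.4 to 22.1) but not *PACSIN2* (16.4 to 17.9), and *CAVIN3* had 5.92 (3.23 to 7.92).

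The ratios between the RNA levels of the coat genes differed accordingly, while the make-up of the coat itself was not tested. Ratios to *CAVIN3* rest on its uncertain counts. The level of *CAV1* over that of *CAVIN3*, both per kb, was 1.04, 0.846 and 1.003 in IGROV1Sen replicates 1, 2 and 3, and 5.93, 4.22 and 3.40 in IGROV1Res replicates 1, 2 and 3. That of *CAVIN1* over *CAV1* was 14.0, 11.5 and 9.97 in IGROV1Sen and 9.13, 7.43 and 8.82 in IGROV1Res. *CAVIN1* RNA thus stayed in excess of *CAV1* RNA in all 6 libraries, by a smaller factor in each IGROV1Res library. Annotated exon length stands in for the transcripts in use, which these counts do not show.

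**Figure D2:**
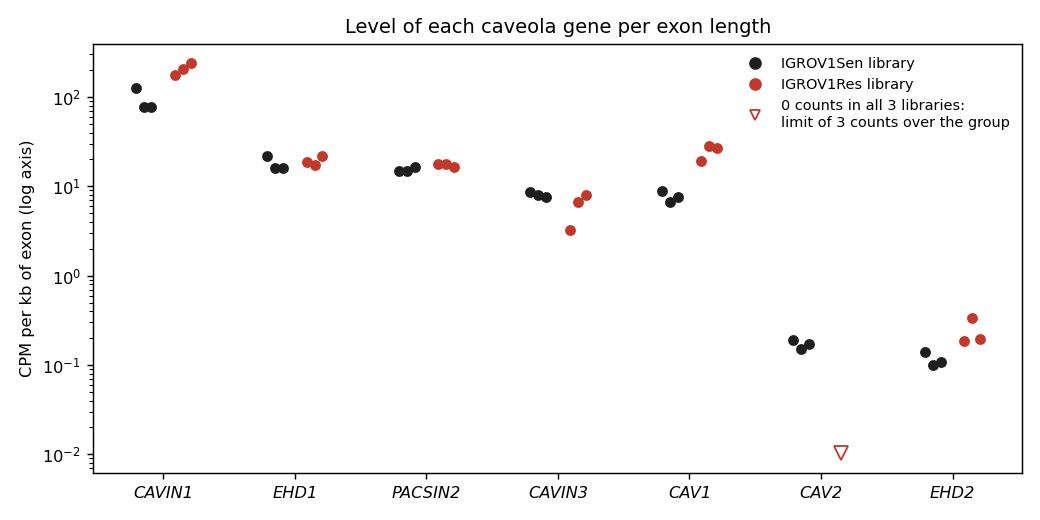
Level of each caveola gene in CPM per kb of annotated exon (log axis), 1 point per library, ordered by the mean of IGROV1Sen. The open triangle is the limit that 3 counts over the IGROV1Res group set for *CAV2*, which had 0 counts there. *CAVIN1* led in both groups, and *CAV1* went from 7.77 to 24.7 CPM per kb while *CAV2* and *EHD2* stayed below 1.

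Libraries differed in ways that touch these values. Totals ran from 12808922 to 15241394 counts. Mitochondrially encoded genes took 7.02% of counts in IGROV1Sen replicate 1 and 6.94% in IGROV1Res replicate 3, against 10.1% to 12.8% in the other 4 libraries. In both of these libraries *CAVIN1* (0.71 and 0.32 on the log2 scale), *EHD1* (0.46 and 0.29), *CAV1* (0.32 and 0.21) and *CAVIN3* (0.14 and 0.77) were above the mean of the other libraries of their group, and *PACSIN2* was below it (-0.06 and -0.12). *EHD2*, with few counts, was above it in IGROV1Sen replicate 1 (0.415) and below it in IGROV1Res replicate 3 (-0.346). Without these 2 libraries the log2 fold change was 1.72 for *CAV1*, 1.32 for *CAVIN1*, -0.65 for *CAVIN3*, 0.18 for *EHD1*, 1.33 for *EHD2* and 0.21 for *PACSIN2*, and *CAV2* was at least 10.4-fold lower.

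No tested neighbour on chromosome 7 had a log2 fold change as large as that of *CAV1*, and none was lost as *CAV2* was. *CAV1* and *CAV2* were chosen for their changes and the neighbours were not, so nothing is read from this contrast. Of 47 annotated genes that start within 1 Mb of *CAV1*, 8 had a row of counts and 7 were tested. *MET*, the hepatocyte growth factor receptor gene that follows *CAV1*, fell from 457 ± 24.9 to 366 ± 44.6 CPM (SD, n = 3 each, log2 fold change -0.32, standard error 0.10, edgeR quasi-likelihood adjusted p = 0.0351), and no other of the 7 passed the threshold. Among all genes tested 17.4% rose and 18.3% fell in IGROV1Res, 35.7% together.

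*TES*, which encodes the focal adhesion protein testin and lies on the other side of *CAV2*, had 3803, 4207 and 4098 counts in IGROV1Sen replicates 1, 2 and 3, and 3869, 3964 and 4462 in IGROV1Res replicates 1, 2 and 3. Its libraries overlapped, and its log2 fold change of 0.01 (standard error 0.08) turned slightly negative (down to -0.04) in 4 of 15 other settings. For *CAPZA2*, a gene of actin filament capping beyond *MET*, the log2 fold change was 0.26 with a standard error of 0.10 (edgeR adjusted p = 0.0667). *CAPZA2* passed the threshold without IGROV1Sen replicate 1, without IGROV1Res replicate 1 and without both libraries with the low mitochondrial share, where its edgeR adjusted p was 0.0142, 0.0467 and 0.0196. *ST7* had -0.16. Its antisense gene *ST7-AS1* had too few counts to be tested, with 4, 6 and 2 in IGROV1Sen replicates 1, 2 and 3 and 5, 19 and 9 in IGROV1Res replicates 1, 2 and 3 (means of 0.284 and 0.776 CPM, overlapping). The genes with few counts had 0.55 (*TFEC*), 0.59 (AC073130.3, which overlaps *TES*) and 0.41 (*CFTR*), with standard errors from 0.33 to 0.39. The median of 675 tested genes of chromosome 7 was 0.02.

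The call of *MET* was lost in 6 of 15 other settings, with an edgeR adjusted p for *MET* between 0.0823 and 0.145. These left out IGROV1Sen replicate 2 (0.0978) or 3 (0.13) or IGROV1Res replicate 2 (0.145) or 3 (0.0823), used a replicate block (0.0993) or summed IGROV1Sen replicates 2 and 3 (0.111).

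**Figure D3:**
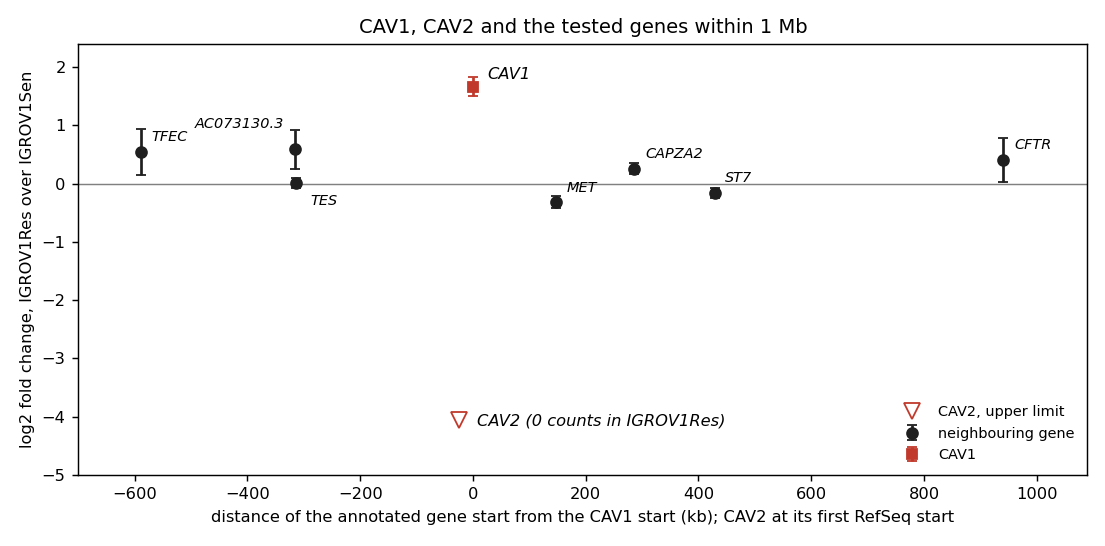
Log2 fold change of IGROV1Res over IGROV1Sen against the distance of the gene start from the *CAV1* start in kb, for *CAV1*, *CAV2* and the 7 tested neighbours within 1 Mb. Bars are standard errors, and the open triangle for *CAV2* is the upper limit set by 3 counts over the group. The neighbours lie between -0.32 and 0.59, and *CAV1* at 1.67.

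Among the relatives of these genes, the muscle cavin gene *CAVIN4* and *EHD3* rose, and *PACSIN3* and *CAVIN2* fell. *CAVIN4*, known from skeletal and heart muscle, had 10, 14 and 23 counts in IGROV1Sen replicates 1, 2 and 3, and 71, 78 and 76 in IGROV1Res replicates 1, 2 and 3. All IGROV1Res libraries lay well above IGROV1Sen, at a log2 fold change of 2.25 (standard error 0.27, edgeR adjusted p = 0.000266). *CAVIN2*, whose protein promotes membrane curvature, fell from 105 ± 2.75 to 83.8 ± 8.79 CPM (SD, n = 3 each, log2 fold change -0.33, standard error 0.09, edgeR adjusted p = 0.0217). Without IGROV1Sen replicate 2 or 3, without IGROV1Res replicate 2, with a replicate block or with IGROV1Sen replicates 2 and 3 summed, its edgeR adjusted p was 0.0586, 0.0865, 0.0867, 0.0588 and 0.0686.

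*EHD3*, an EHD gene of endosomal traffic, rose from 19.6 ± 0.71 to 29.1 ± 2.47 CPM (SD, n = 3 each, log2 fold change 0.57, edgeR adjusted p = 0.00263). *PACSIN3*, an F-BAR gene best known from muscle, fell from 25.7 ± 1.96 to 14.99 ± 1.79 CPM (SD, n = 3 each, log2 fold change -0.78, edgeR adjusted p = 0.00121). *EHD4* had 330 ± 56.5 and 412 ± 43.7 CPM (SD, n = 3 each, edgeR adjusted p = 0.0815). That adjusted p was 0.00434 without IGROV1Sen replicate 1 and 0.00197 without both libraries with the low mitochondrial share. For *PACSIN1*, known from neurons, the log2 fold change was -0.20. Thus 2 of 6 tested relatives rose and 2 fell, beside 17.4% and 18.3% of all genes tested, and their median log2 fold change was 0.06, against -0.01 for all genes tested. In each of the settings that lost *CAVIN2*, 1 relative fell. *CAV3*, the muscle caveolin gene, was not analysed here.

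Among 14 genes whose proteins anchor, sever or bind caveolae, 4 rose and 6 fell, with a median log2 fold change of -0.21. As background for this list and those that follow, 17.4% of all genes tested rose and 18.3% fell, and the median was -0.01. These lists, and that of the relatives, were chosen with earlier results of these data known. How many of their genes rose or fell, and their p-values, are therefore a description only. *FLNA*, which encodes an actin crosslinker that ties caveolae to the cytoskeleton, rose from 1486 ± 46.2 to 2667 ± 84.5 CPM (SD, n = 3 each, log2 fold change 0.84, edgeR adjusted p = 0.000132). *CSK*, the kinase that restrains SRC, fell (log2 fold change -0.56, edgeR adjusted p = 0.00185). The number that rose was 2 when IGROV1Sen replicate 2 or 3 or IGROV1Res replicate 2 or 3 was left out.

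The scaffolds of other membrane domains (the SPFH family) gave 5 increases and 2 decreases among 9 genes, with a median of 0.43. *STOM*, which encodes stomatin, and *ERLIN2*, an endoplasmic reticulum gene, rose by 1.14 and 0.72 on the log2 scale. *FLOT2*, which encodes a flotillin, fell by 0.50 on that scale, while *FLOT1*, the other flotillin gene, rose by 0.52. The adjusted p of *STOM*, *ERLIN2*, *FLOT2* and *FLOT1* was 0.000113, 0.000144, 0.00126 and 0.00176 in edgeR's quasi-likelihood test.

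**Figure D4:**
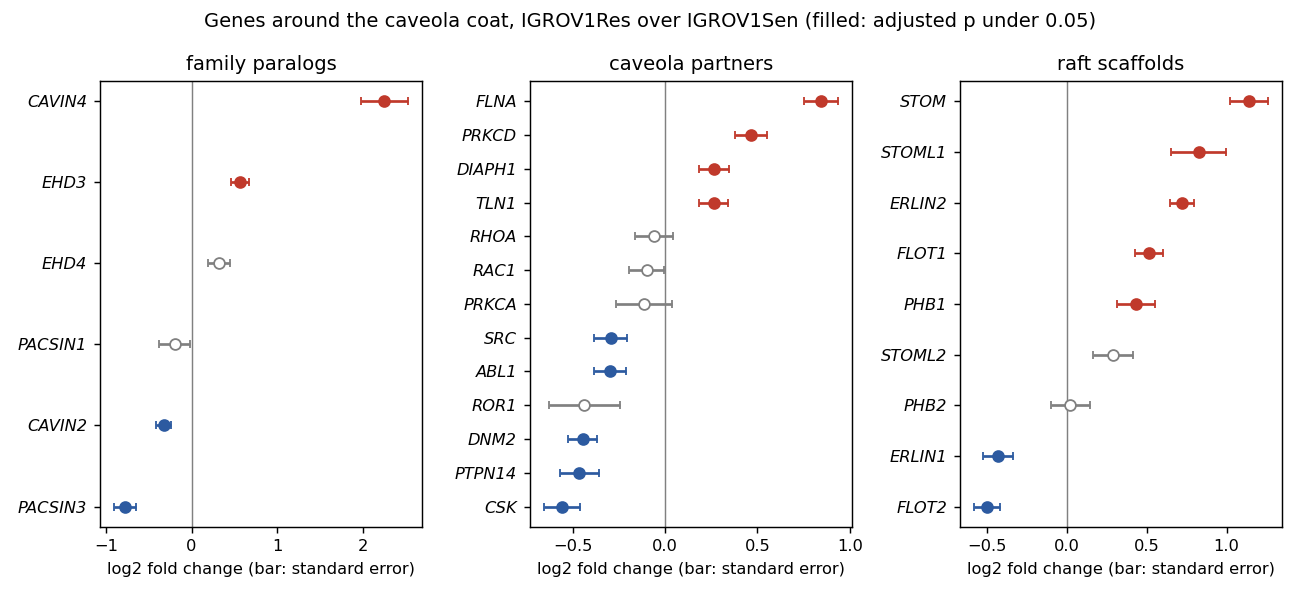
Log2 fold change of IGROV1Res over IGROV1Sen with its standard error for the relatives of the caveola genes, the partners of caveolae reported here and the scaffolds of other membrane domains. Filled points passed an adjusted p under 0.05 in edgeR's quasi-likelihood test, red higher and blue lower in IGROV1Res. *CAVIN4* is farthest to the right at 2.25, and *FLNA* and *CSK* lie on opposite sides of 0 at 0.84 and -0.56.

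The clathrin coat and its adaptors form the other main route of endocytosis, and 10 of their 29 tested genes rose and 5 fell (median log2 fold change 0.19), beside 17.4% and 18.3% of all genes tested. This list too was chosen with earlier results of these data known, so nothing is read from how many rose or fell. *DAB2*, an endocytic adaptor, rose from 12, 5 and 2 counts to 202, 287 and 262, and *SH3GL2*, which encodes an endophilin, fell from 273, 355 and 342 counts to 2, 4 and 3. *HIP1*, which encodes a clathrin-binding actin linker, fell by 1.03 on the log2 scale. Their adjusted p was 9.81e-06, 1.52e-07 and 1.92e-05 in edgeR's quasi-likelihood test. *DAB2* passed the filter on low counts through IGROV1Res alone and *SH3GL2* through IGROV1Sen alone. Nothing is therefore read from the adjusted p of *DAB2* and *SH3GL2*. The number that rose was 5 without IGROV1Sen replicate 2, and 6 without IGROV1Sen replicate 3 or IGROV1Res replicate 3.

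Of 22 genes of endocytic recycling, the route in which EHD1 works, 6 rose and 3 fell (median 0.10). *MICALL1*, whose protein recruits EHD1 to recycling endosomes, rose by 0.75 on the log2 scale, *RAB11FIP1*, which encodes a RAB11 effector, by 0.83 and *EEA1*, an early endosome gene, by 0.69, while *RBSN*, another early endosome gene, fell by 0.46. Their adjusted p was 0.00171, 0.000184, 0.00185 and 0.00395 in edgeR's quasi-likelihood test. Without IGROV1Sen replicate 3, 3 genes rose, and without IGROV1Sen replicate 2, 1 fell.

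Proteins of the BAR family bend membranes as PACSIN2 does, and 4 of 16 of their genes rose and 6 fell (median -0.17). The log2 fold changes were 1.07 for *MTSS1*, -2.16 for *GAS7* and -0.88 for *SRGAP1*. Of 18 genes of cholesterol and sphingomyelin supply, lipids in which caveolae are rich, 4 rose and 5 fell (median 0.04). *NPC1*, a lysosomal cholesterol exporter gene, rose (log2 fold change 1.02), and *SPTLC2*, which encodes a subunit of the first enzyme of sphingolipid synthesis, and *SCARB1*, a lipoprotein receptor gene, fell (-1.01 and -0.56). The adjusted p of these 6 genes lay between 8.58e-06 and 0.000837 in edgeR's quasi-likelihood test. Without IGROV1Sen replicate 2 or 3 or IGROV1Res replicate 3, 2 of the lipid supply genes rose and 3 fell.

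The genes whose pattern over the 6 libraries was most like that of *CAV1* were *FNTA*, *PITRM1* and *TRIB3*, with Pearson's r of 0.999, 0.998 and 0.998 of log2 CPM. For *CAV2* they were *ZNF503*, *TFPI* and *ITGA6*, all 3 with r above 0.999. Both were taken from 9581 genes whose mean was 10 CPM or more in either group. The 6 libraries share the difference between the groups and the scaling, and *CAV1* and *CAV2* were chosen for that difference. *CAV2* had 0 counts in all 3 IGROV1Res libraries, so its log2 CPM there rests on the prior count and the library size. The r values are a description only.

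The defining markers of the labelled ovarian cancer cells were met in part, and some of them differed between the groups. The Müllerian marker *PAX8* had 832 and 819 CPM and *KRT19* 320 and 282 CPM in IGROV1Sen and IGROV1Res. Of 7 tested epithelial markers 3 rose and 0 fell, beside 17.4% and 18.3% of all genes tested. *KRT18* went from 295 to 1063 CPM, *KRT8* from 7.94 to 53.8 CPM and *EPCAM* from 0.729 to 1.93 CPM (edgeR adjusted p = 1.23e-05, 5.13e-05 and 0.0351). *EPCAM* had few counts, 7, 11 and 13 in the IGROV1Sen libraries and 42, 24 and 15 in the IGROV1Res libraries. *CDH1*, *MUC1* and *KRT7* were below 2 CPM in both groups, and *WT1* and *MUC16* had no row. The summed level of the epithelial list was 1371 to 1517 CPM in IGROV1Sen and 2007 to 2407 CPM in IGROV1Res. That difference came mainly from *KRT18*, and *PAX8* and *KRT19* did not pass the threshold.

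Of the markers of other cells known for caveolae, 5 of 7 of endothelium, 5 of 6 of adipocytes and 5 of 7 of muscle had no row, as had all 6 of blood. The endothelial cadherin gene *CDH5* was present at 113 ± 11.7 CPM and rose to 165 ± 2.69 (SD, n = 3 each, log2 fold change 0.54, edgeR adjusted p = 0.00146), beside *VWF* at 9.99 and 11.6 CPM. The summed level of the endothelial list was 114 to 142 CPM in IGROV1Sen and 175 to 178 CPM in IGROV1Res, with *PECAM1*, *KDR*, *TEK*, *CLDN5* and *EMCN* without a row. The adipocyte list was represented by *PLIN4*, which fell from 6.49 to 2.82 CPM (log2 fold change -1.21, edgeR adjusted p = 0.00581), and the muscle list summed to 1.18 to 2.17 CPM in IGROV1Sen and 1.12 to 2.48 CPM in IGROV1Res.

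The fibroblast genes did not move together. The summed level of the 5 with a row, of 7 listed, was 25.6 to 28.7 CPM in IGROV1Sen and 33.8 to 50.3 CPM in IGROV1Res. Of 4 tested, *PDGFRB* (8.46 and 27.0 CPM) and *LUM* (1, 0 and 0 against 26, 28 and 15 counts) rose, and *COL1A1* fell from 13.7 to 7.70 CPM (edgeR adjusted p = 0.000836, 0.000356 and 0.0311). Among all genes tested 17.4% rose and 18.3% fell. *LUM* passed the filter on low counts through IGROV1Res alone, so nothing is read from its adjusted p. *PDGFRA* had 4.79 and 4.53 CPM, and *COL1A2*, not tested, 0.0936 and 0.866 CPM. The part of these markers in the values of the caveola genes was not tested.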

How the data were processed

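RNA of IGROV1Sen and IGROV1Res cells was compared with 3 libraries per group, all matched to their columns by label. The authors deposited raw read counts per Ensembl gene (14646 genes) from single-end reads. How genes were filtered and which aligner, counter and strand setting were used is not given in the sources used here. The submitters' processing notes name hg18 and edgeR. The authors' second deposited table gave gene symbols (13200 genes). Its log2 fold changes and log2 CPM, its likelihood ratio score and its p-values, which the authors computed with edgeR, were not used. GENCODE release 29 (GRCh38) gave coordinates and exon lengths by identifier (14611 found), and RefSeq (GRCh38.p14) the start windows of *CAV1* and *CAV2*.

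The deposited counts were passed through the filterByExpr function of edgeR 4.0.16 (R 4.3.3) at its settings of 10 counts per gene and 15 in total, and the 13791 genes left were scaled by TMM and compared with glmQLFit and glmQLFTest, the group as the only term. A gene rose or fell at a Benjamini-Hochberg adjusted p under 0.05 over all genes tested. The standard error was taken as the size of the log2 fold change divided by the root of its F statistic. Totals of 12808922 to 15241394 counts put 3 counts at 0.198 to 0.236 CPM. The prior count of log2 CPM was 0.5. The steps were tested on simulated counts.

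The members and the lists were chosen with earlier results of these data known. Named are the members, their relatives and the tested neighbours, in each other list the 3 called genes with the smallest adjusted p and, where those share a direction, the first of the opposite one, and the 3 genes most like *CAV1* and *CAV2*. *FLOT1* is named beside *FLOT2* as the other flotillin gene. Marker genes describe the cells. Some genes that these rules select are not reported here. Alternatives were RLE or no composition factors, 2 other filters, the likelihood ratio test, DESeq2 1.42.0, a replicate block, leaving out 1 library or both libraries with the low mitochondrial share, summing IGROV1Sen replicates 2 and 3, a window of 0.5 Mb and counts per kb. IGROV1Sen replicates 2 and 3 differed least of the pairs within a group (chi-square per degree of freedom 1.49, against 12.4 to 34.4), still beyond sampling noise, and were kept as 2 libraries.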

Additional observations from a re-analysis of the deposited data

How the results depend on the processing

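The log2 fold changes of *CAV1*, *CAVIN1*, *CAVIN3*, *EHD1*, *EHD2* and *PACSIN2* kept their direction and stayed within 1 SD of the spread between replicates in every setting that could give them. That SD came from the same libraries, so a fit without 1 of them could hardly move beyond it. Staying within it is therefore no sign of stability. *EHD2* gave no value with at least 10 counts in every library. The bound of *CAV2* was not computed for the likelihood ratio test, DESeq2 or the replicate block. When 1 library at a time was left out they ranged from 1.57 to 1.82 (*CAV1*), 1.03 to 1.43 (*CAVIN1*), -0.70 to -0.15 (*CAVIN3*), 0.02 to 0.29 (*EHD1*), 0.73 to 1.20 (*EHD2*) and 0.16 to 0.23 (*PACSIN2*). The least fold by which *CAV2* was lower was 11.02 to 17.8 without 1 library and 10.4 without both libraries that stood apart, since fewer libraries raise the limit. The share of *CAV1* in IGROV1Sen was 97.8% per kb of exon and 96.7% per kb of coding-transcript exon, the latter chosen after the data were seen.

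The number of genes that rose, 2394, was 1530 with a replicate block, and 1538 to 3023 without 1 library. Of the listed genes, chosen with earlier results of these data known, 35 rose and 29 fell, beside 17.4% and 18.3% of all genes tested. The lists held 6, 14, 9, 29, 22, 16 and 18 tested genes. With a replicate block 23 rose, with IGROV1Sen replicates 2 and 3 summed 21, and without 1 library 22 to 44. Among the neighbours, 0 rose and 1 fell in the quasi-likelihood test. The replicate block and the sum of IGROV1Sen replicates 2 and 3 left 0 that fell, leaving out 1 library gave 0 to 1 in each direction, and 1 (*CAPZA2*) rose without both libraries that stood apart. The log2 fold change of *TES* was -0.0379 to 0.0534 when 1 library was left out, with -0.0121 without IGROV1Sen replicate 2, -0.0379 without IGROV1Res replicate 3, and it was -0.011 without both libraries that stood apart and -0.0001 with IGROV1Sen replicates 2 and 3 summed. Of the other single genes named, *MET* lost its call in 6 settings and *CAVIN2* in 5, and *EHD4* gained one in 2 and *CAPZA2* in 3. The cause of these shifts was not tested.

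Same-numbered libraries did not deviate together (r = -0.407, 0.085 and -0.366 for replicates 1, 2 and 3), so the numbers were not taken as pairs. The largest r across the groups, 0.512, was that of IGROV1Sen replicate 1 with IGROV1Res replicate 3, the libraries with the low mitochondrial share. Depth limits *CAV2* and *EHD2*, whose libraries hold at most 19 counts.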
